A study of Mus musculus with 21 samples.

Results

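B cells labelled HEL pos were compared with B cells labelled HEL neg across 3 mouse tissues. These were the spleen, the lymph nodes of the mesentery (mLN), and the Peyer's patches (PP), the organised lymphoid tissue of the small intestinal wall. The comparison uses 12 of the 21 libraries of the series, chosen by their labels alone: 9 HEL pos libraries and 3 HEL neg libraries, with all genes of the count table as features. In each tissue the HEL pos cells have 3 libraries (a pool and the libraries numbered 392 and 399), while the HEL neg cells have 1 pool. The other 9 libraries are BCL2 HEL pos cells, and they are not compared here. All mice were C57BL/6, aged 8 to 12 weeks, and the cells were sorted directly into TRIzol before RNA extraction. The labels do not expand HEL or BCL2, do not say how the cells were gated, and do not say whether 392 and 399 are single mice or how many mice a pool holds. The series' stated subject is self-reactive B cells in the gut.

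As background, a B cell carries an antigen receptor of a single specificity. A B cell that binds foreign antigen with T cell help can enter a germinal centre, where it divides fast, mutates its antibody genes and later leaves as a memory cell or an antibody-secreting plasma cell. A B cell whose receptor binds a self antigen can instead be deleted, edited or made unresponsive, a state called anergy. Transitional B cells are the recent emigrants of the bone marrow, and marginal zone B cells are a spleen subset that responds early to blood-borne antigen. Peyer's patches hold standing germinal centres driven by gut microbes.

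Library totals ran from 5751055 to 10384341 counts in HEL pos libraries and from 5475131 to 7093785 in HEL neg pools. At these depths 3 counts, the floor used here for a gene with no count, came to 0.289 to 0.522 CPM in HEL pos libraries and 0.423 to 0.548 CPM in HEL neg pools, where CPM is a count scaled to a common library total. Single-gene levels below are in CPM after scaling the totals for composition. Transcripts of 12 B cell identity genes summed to between 12100 and 27000 CPM of the plain total in HEL pos libraries and between 19000 and 21600 in HEL neg pools. Ms4a1 (CD20), a B cell surface protein, ranged from 1494 to 4797 CPM with a median of 1859 in HEL pos libraries, against 2926, 2723 and 1741 CPM in the HEL neg pools of spleen, mLN and PP, so both labels held B cells. Of the 12 identity genes, 0 rose and 3 fell, and the fallen ones were Pou2af1, Cd22 and Bank1. With the block for the source of the library described below, or without the mLN or the PP HEL neg pool, 1 fell, and without the spleen pool 5 fell.

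A gene was called when the adjusted p of edgeR's quasi-likelihood test, with tissue as a covariate, was under 0.05. Of 11406 genes tested in the 12 libraries, 990 were called, which is 8.68% of those tested. In HEL pos cells 395 rose (3.46%) and 595 fell (5.22%), and 454 of the called genes changed over 2-fold, 150 up and 304 down. The shares of 3.46% and 5.22% stand beside each count of called list members below. For 309 of the genes that rose all 9 HEL pos libraries were above the HEL neg pool of their own tissue, and for 499 of those that fell all 9 were below it. The median log2 fold change of all genes tested was 0.02. The genes that fell furthest included Gcet2, S1pr2 and Rgs13 of germinal centre B cells, Ccnb2 of dividing cells, and Anxa2 and Igj of memory and plasma cells, and those that rose furthest included Spp1, Gpr56, Ifitm2, Hivep3, Mx1 and Cd93. All p-values measure only how these libraries vary around the fitted model, and part of that variation may be technical. The main model holds the HEL difference equal in all tissues, so differences in it between tissues add to the spread. A fit with 6 groups, which lets the HEL difference vary by tissue, called 1475 genes. Libraries of the same source were treated as independent except with the block for the source of the library described below. Deviations of HEL pos libraries of the same source correlated across tissues at 0.0362 to 0.325. The count of 990 rests on the HEL neg pools: without the mLN pool 189 genes were called, without the PP pool 176, and without the spleen pool 1574. It was 602 and 644 without the mLN HEL pos libraries 392 and 399. Of 102 called genes that are named by the fixed rule, 43 stayed called without the mLN pool, 44 without the PP pool and 94 without the spleen pool. S1pr2, Gcet2, Mef2b, Rgs13, Mki67, Ccnb2, Anxa2, Igj, Mx1, Cd36, Plac8, Icosl, Gpr56 and Hivep3 stayed called without any single library, without any single tissue and with a block for the source of the library. With the HEL pos pools alone Mx1 (adjusted p 0.113), Plac8 (0.0645), Gpr56 (0.0603) and Icosl (0.0564) were not called, and the other genes just listed were.

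Every HEL neg library is a pool, while 6 of the 9 HEL pos libraries are not. With that block 123 genes were called, and with the 3 HEL pos pools alone against the HEL neg pools 73 were called. With the block, too, the HEL difference rests on HEL pos pools against HEL neg pools. Libraries 392 and 399 then inform only the spread and the tissue levels. The fits with the block and with pools alone are therefore not separate checks of a fold change. All 990 called genes kept their direction under the block, and 121 of them stayed called. Of the 953 that could be tested in the pools alone, all kept their direction and 71 stayed called. Transcripts of 4 Y-linked genes summed to 140 to 168 CPM in the HEL pos pools but did not exceed 0.869 CPM in libraries 392 and 399, against 115 to 156 CPM in the HEL neg pools. Libraries 392 and 399 thus differ from every HEL neg pool in these transcripts as well as in HEL label, and the part of this in the results was not tested beyond the fits on pools alone. On chromosome X, 27 of 329 tested genes were called (8.21%), and Xist was not called (log2 fold change 0.92, adjusted p 0.0616). Without the 3 HEL pos pools Xist was called (1.16, adjusted p 0.00552, edgeR), and all 4 Y-linked genes fell, with a median of -8.87.

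Germinal centre transcripts were lower in HEL pos cells of all 3 tissues. Of 14 germinal centre genes tested 11 fell, 0 rose and 3 were not called, with a median log2 fold change of -2.61. S1pr2, a receptor that holds B cells inside the germinal centre (chr9:20962361-20976781), had 0.526 to 10.6 CPM with a median of 5.02 in HEL pos libraries, against 54.6, 75.4 and 232 CPM in the HEL neg pools of spleen, mLN and PP. No HEL pos library reached the level of any HEL neg pool, and the log2 fold change was -4.54 ± 0.48 (SE, adjusted p 8.34e-05, edgeR). In bulk libraries fewer germinal centre cells and less of these transcripts per cell cannot be told apart.

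Gcet2, a germinal centre signalling adaptor, was at 0 in 5 of the 9 HEL pos libraries and reached 4.65 CPM in the PP pool, against 50.8, 68.7 and 105 CPM in the HEL neg pools. Its log2 fold change was -6.13 ± 0.74 (adjusted p 2.24e-04), the lowest among the called genes that the naming rule selects. Within each tissue the HEL pos pool had more Gcet2 than 392 and 399: 3.93 against at most 0.314 CPM in spleen, 1.02 against 0 in mLN and 4.65 against 0 in PP. Mef2b, a transcription factor upstream of the germinal centre regulator Bcl6, had a median of 7.18 CPM (0.757 to 15.6) in HEL pos libraries, against 56.1, 91.5 and 224 CPM in HEL neg pools (log2 fold change -3.96). Rgs13, which damps chemokine receptor signals in germinal centre cells, changed by -4.07, and Neil1, a DNA glycosylase, by -2.39. Bcl6 itself fell less, at 47.4 to 129 CPM with a median of 100.5 in HEL pos libraries, against 150.4, 203 and 192 CPM in HEL neg pools (log2 fold change -1.11, adjusted p 0.00312). Fas, a death receptor that is high on germinal centre cells, changed by -1.53. The 3 that were not called were Basp1 (-0.97), Plxnb2 (-0.68) and Elk3 (-0.02). With the block, 7 of the 14 genes fell, with a median of -2.44, and with pools alone also 7, with a median of -2.32. Without the PP HEL neg pool 7 fell.

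**Figure D1:**
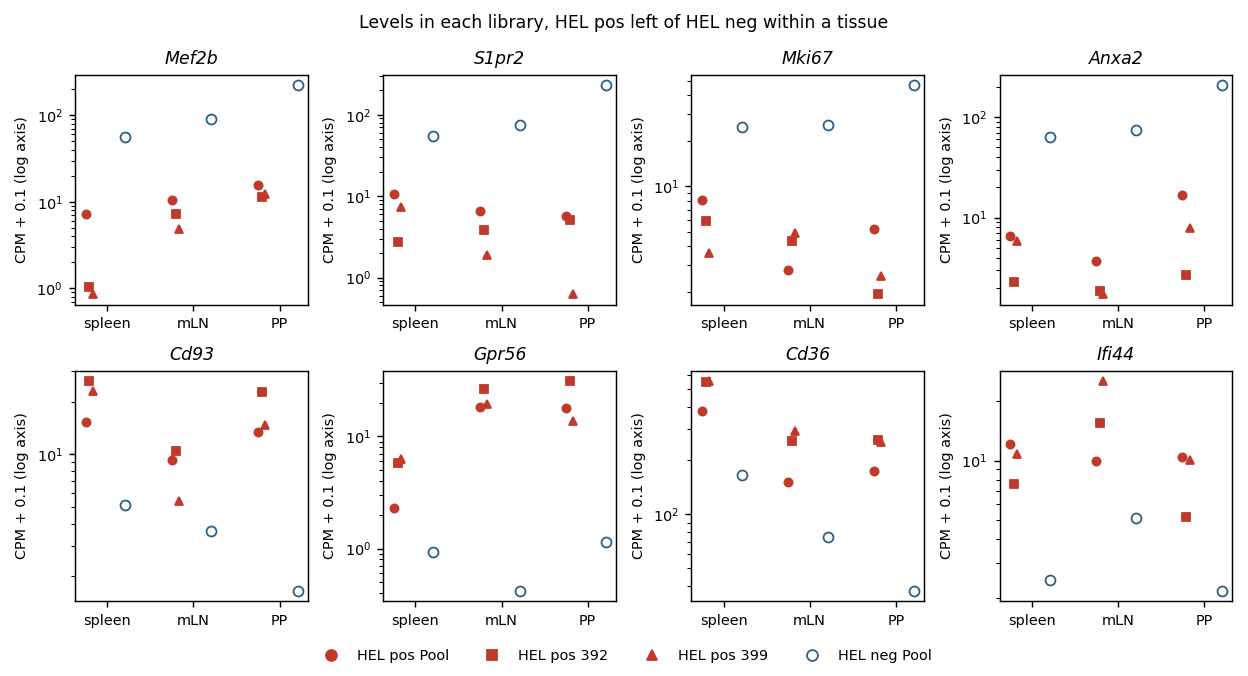
Levels of 8 genes in each of the 12 libraries, in CPM plus 0.1 on log axes that differ between panels, with HEL pos (filled red, shape by source) left of HEL neg (open blue) in each tissue. Mef2b, S1pr2, Mki67 and Anxa2 were below the HEL neg pool of their own tissue in all 9 HEL pos libraries, and Cd93, Gpr56, Cd36 and Ifi44 were above it in all 9.

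Genes of mitosis fell together with them. Of 20 mitosis genes tested 18 fell and 0 rose, with a median log2 fold change of -2.19. Mki67, the proliferation antigen Ki-67 (chr7:135689784-135716361), had 1.83 to 7.99 CPM with a median of 4.21 in HEL pos libraries, against 24.5, 25.3 and 46.7 CPM in the HEL neg pools of spleen, mLN and PP. The lowest HEL neg pool was above every HEL pos library, and the log2 fold change was -2.95 ± 0.34 (adjusted p 1.64e-04, edgeR). Ccnb2, a mitotic cyclin, had 0 to 5.32 CPM with a median of 1.65 in HEL pos libraries, against 23.8, 32.9 and 30.4 CPM in HEL neg pools, with a log2 fold change of -4.11 ± 0.60. Cdk1, the kinase that drives entry into mitosis, changed by -2.63, Ccna2 by -2.74, Top2a, a topoisomerase of dividing cells, by -1.83, and Cdc20, an activator of the anaphase-promoting complex, by -2.32. Aurkb (-0.88) and Hmmr (-1.31) were not called. DNA replication genes were lower by less: 13 of 24 fell and 0 rose, with a median of -0.75. Rrm2, the regulated subunit of ribonucleotide reductase, changed by -2.26 and the origin-licensing factor Cdc6 by -2.33, whereas the helicase subunits Mcm2 to Mcm7 changed by -0.73 to -0.90. Pcna, the sliding clamp of replication, was not called, at 106 to 337 CPM in HEL pos libraries against 151, 180.4 and 161 CPM in HEL neg pools. With pools alone 5 mitosis genes and 1 replication gene fell, with medians of -1.66 and -0.60, and with the block 7 and 1. Without the mLN HEL neg pool 10 mitosis genes fell, and without the PP pool 7 mitosis genes and 1 replication gene.

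The promoters of the mitosis genes share short sequences that are known from cell cycle genes, and those of Ccnb2 and Cdc20 are shown for that reason. The sequences are from RefSeq (GRCm38.p6, the assembly behind mm10), 5′ to 3′ on the gene's strand, and cover the 150 bases before the start of transcription, at chr9:70421555-70421704 (minus strand) for Ccnb2 and chr4:118437344-118437493 (minus strand) for Cdc20. Capitals mark CCAAT boxes, written CCAAT or its reverse complement, and in Cdc20 also the cell cycle homology region TTTGAA.
Ccnb2: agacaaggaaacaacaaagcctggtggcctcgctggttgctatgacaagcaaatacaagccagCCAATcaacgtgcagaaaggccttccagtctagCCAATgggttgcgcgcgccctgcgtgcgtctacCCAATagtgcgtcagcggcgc
Cdc20: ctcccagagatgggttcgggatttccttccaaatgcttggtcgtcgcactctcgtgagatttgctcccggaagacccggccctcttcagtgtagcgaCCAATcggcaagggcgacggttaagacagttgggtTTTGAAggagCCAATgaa
In the 250 bases before the start, on either strand, 15 of the 17 mitosis genes with a RefSeq window held CCAAT (88.2%). This compares with 34.5% of all 27025 promoter windows and 37.4% of those of genes tested. TTTGAA stood in 7 of the 17 (41.2%), against 16.3% of all windows. Of the 20 replication genes with a window 13 held CCAAT (65.0%) and 3 held TTTGAA (15.0%). These are matches of letters in a window and not measured binding sites.

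Genes of memory and innate-like B cells moved in both directions. Of 17 tested, 6 fell and 2 rose, with a median log2 fold change of -0.46. Anxa2, a calcium-binding membrane protein of memory and plasma cells (chr9:69453620-69491795), had 1.64 to 16.5 CPM with a median of 3.57 in HEL pos libraries, against 63.4, 74.1 and 208 CPM in the HEL neg pools of spleen, mLN and PP. All 9 HEL pos libraries were below all 3 pools, with a log2 fold change of -4.43 ± 0.36 (adjusted p 1.74e-05, edgeR). Nt5e (CD73), an enzyme that makes adenosine and marks memory B cells, had a median of 1.23 CPM (0 to 4.34) in HEL pos libraries, against 18.8, 11.6 and 26.8 CPM in HEL neg pools, with a log2 fold change of -3.92. The costimulatory ligand Cd80 changed by -2.98, the chemokine receptor Cxcr3 by -3.16, the transcription factor Tbx21 (T-bet) by -1.67 and Zbtb32 by -2.36. The members that rose were Zeb2, a transcription factor, by 0.92 and S100a10, a partner of Anxa2 protein, by 0.70. Igj, the joining chain of secreted IgA and IgM, had 2.45 to 160 CPM with a median of 24.6 in HEL pos libraries, against 355, 212 and 530 CPM in HEL neg pools, a log2 fold change of -4.07 ± 0.49 (adjusted p 2.24e-04, edgeR). It was the only one of the 21 tested plasma cell and secretion genes to fall. Irf4, a transcription factor that rises with receptor signals and in plasma cells, was the only one to rise, by 0.85, and the other 19 were not called, among them Xbp1 (-0.23) and Prdm1 (-1.65). Irf4 was not called with the block (adjusted p 0.278), without the mLN or the PP HEL neg pool, without any one of the mLN HEL pos libraries, or without the spleen or the PP library 392. With the block 1 memory gene rose and 1 fell, and without the spleen, mLN or PP HEL neg pool 3, 3 and 1 fell. Nt5e was not called with the block (adjusted p 0.0803) or without the PP HEL neg pool.

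**Figure D2:**
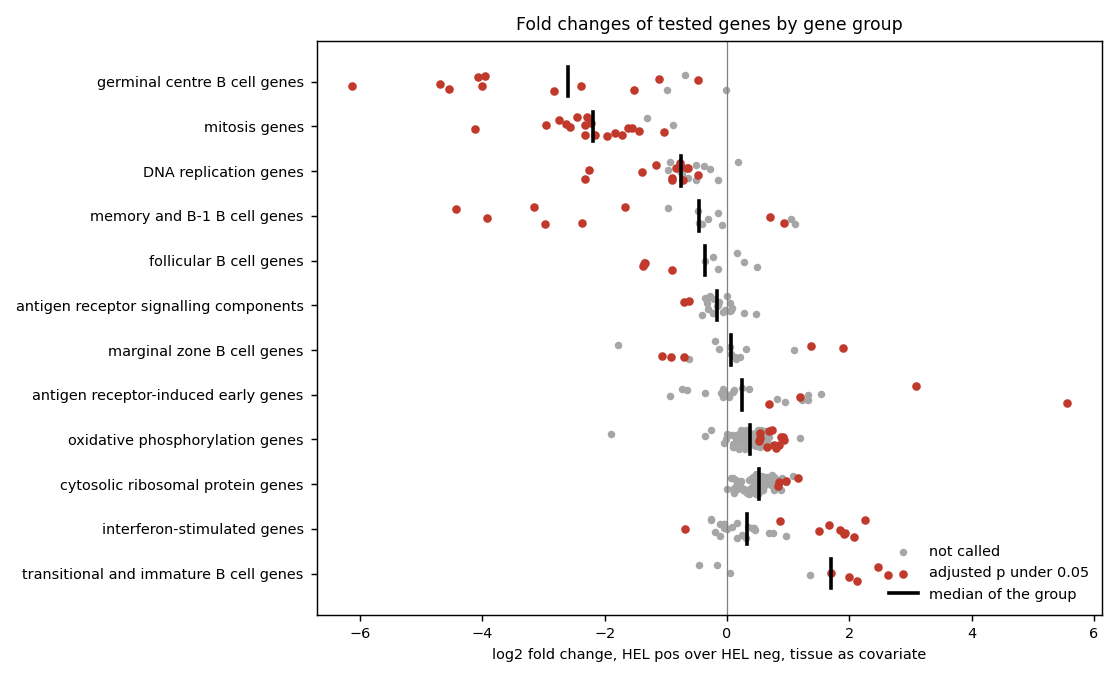
Log2 fold change of HEL pos over HEL neg cells for each tested gene of 12 gene groups, with called genes in red, other genes in grey and the group median as a black bar. Medians ran from -2.61 for germinal centre genes and -2.19 for mitosis genes to 1.69 for transitional B cell genes.

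Some genes of transitional B cells were higher in HEL pos cells. Of 14 such genes 9 passed the filter on low counts, and of these 5 rose and 0 fell, with a median log2 fold change of 1.69. A gene can pass the filter on its HEL pos libraries alone, which can raise this count and median. Sox4, for one, had 218 counts over the HEL pos libraries and 13 over the HEL neg pools. The genes that did not pass are not covered. Cd93, the surface marker of transitional B cells (chr2:148436640-148443563), had 5.32 to 26.2 CPM with a median of 14.7 in HEL pos libraries, against 5.01, 3.55 and 1.56 CPM in the HEL neg pools of spleen, mLN and PP. Every HEL pos library was above every HEL neg pool, and the log2 fold change was 2.12 ± 0.40 (adjusted p 0.0047, edgeR). Bmf, a pro-apoptotic relative of BCL2, had a median of 57.2 CPM (31.1 to 77.8) in HEL pos libraries, against 23.5, 19.8 and 9.16 CPM in HEL neg pools, with a log2 fold change of 1.69. The transcription factors Lef1, Sox4 and Myb, which are known from B cell precursors, rose by 1.99, 2.48 and 2.64, although Sox4 had at most 6.12 CPM. Cd24a (-0.16), Vpreb3 (0.06), Spn (1.36) and Il7r (-0.46) were not called. With the block 1 of the 9 rose, with a median of 1.31, and with pools alone 0, with a median of 1.34. Without the mLN or the PP HEL neg pool 2 rose in either case, and Cd93 was not called without the PP pool or with the block (adjusted p 0.0542).

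Genes of mature subsets were split. Among 11 genes of follicular B cells, 4 fell and 0 rose, with a median log2 fold change of -0.36. Among them were the integrin Itgb7 (-1.38), the complement regulator Cd55 (-1.35) and the follicle-homing receptor Cxcr5 (-0.91). Itgb7, which pairs with an alpha chain in gut homing, had 80.1 to 343 CPM with a median of 128 in HEL pos libraries, against 363, 438 and 364 CPM in the HEL neg pools of spleen, mLN and PP. The groups did not overlap, though the spleen HEL pos libraries lay close to the pools. Itgb7 was not called without the mLN HEL neg pool, without which 1 follicular gene fell and the median was 0.04, or with the libraries of mLN or of PP left out. Of 16 marginal zone genes 2 rose and 3 fell. Cd36, a scavenger receptor (chr5:17781690-17888801), had 151 to 553 CPM with a median of 261 in HEL pos libraries, against 165, 74.9 and 37.5 CPM in HEL neg pools, and rose by 1.89 ± 0.25 on the log2 scale (adjusted p 4.49e-04, edgeR). Plac8 had a median of 1001 CPM (488 to 1319) in HEL pos libraries, against 455, 320.3 and 259.8 CPM in HEL neg pools, and rose by 1.38. Notch2, the receptor required for marginal zone B cells, and its target Dtx1 went the other way, at -0.71 and -0.92, as did Cr2, the complement receptor CD21, at -1.06. Dtx1 and Cr2 were not called with the block (adjusted p 0.162 and 0.142), and without the mLN HEL neg pool edgeR called 0 falls among the 16, without the PP pool 1. Cd1d1 (-0.13), Cd9 (-0.62) and S1pr3 (0.22), which are high on marginal zone cells, were not called.

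Interferon-stimulated genes rose in part. Of 30 tested, 8 rose and 1 fell, with a median log2 fold change of 0.33. Mx1, an antiviral GTPase, had 8.22 to 30.7 CPM with a median of 15.8 in HEL pos libraries, against 5.01, 4.52 and 1.56 CPM in the HEL neg pools of spleen, mLN and PP. The groups did not overlap, and the log2 fold change was 2.26 ± 0.39 (adjusted p 0.0029, edgeR). Ifi44 had a median of 10.4 CPM (5.02 to 25.2) in HEL pos libraries, against 2.37, 5.00 and 2.07 CPM in HEL neg pools, a log2 fold change of 1.94, and its lowest HEL pos library lay level with the highest pool. The other genes that rose were Rsad2 (viperin, 2.08), Ifitm3 (1.91), Ifih1 (the RNA sensor MDA5, 1.84), Mx2 (1.66), Ifit2 (1.51) and Trim30a (0.87). The one that fell was Ly6a (-0.69). The signalling factors Stat2 (0.08) and Irf7 (-0.11) were not called, and neither were Ifit1 (0.96), Isg15 (0.75) and Oasl2 (0.00). With the block 3 of the 30 rose, with a median of 0.14, and with pools alone 0, also with a median of 0.14. Without the mLN HEL neg pool 4 rose and without the PP pool 2, Ifi44 then not among them. Ifitm2, a neighbour of Ifitm3 in the same family, rose by 4.04, at 1.85 to 61.7 CPM with a median of 8.77 in HEL pos libraries against 0.975, 0.807 and 0.519 CPM in HEL neg pools.

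The promoter of Rsad2 is shown because it holds the sequence through which interferon-activated factors are known to act. It is from RefSeq (GRCm38.p6), the 150 bases before the start at chr12:26456453-26456602 (minus strand), 5′ to 3′ on the gene's strand. Capitals mark a match to GAAANNGAAA on the opposite strand.
Rsad2: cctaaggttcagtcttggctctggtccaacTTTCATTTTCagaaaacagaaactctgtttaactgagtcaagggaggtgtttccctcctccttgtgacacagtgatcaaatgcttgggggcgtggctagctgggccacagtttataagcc
Of the 21 interferon-stimulated genes with a RefSeq window 11 held this motif in the 250 bases before the start (52.4%), and of the 6 called ones 2 did (33.3%). This compares with 3.04% of all windows and 2.75% of those of genes tested.

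Most genes of the antigen receptor pathway were not called. Of 23 signalling components 0 rose and 2 fell: Syk (-0.71), the kinase that starts the signal, and Rasgrp3 (-0.63), an activator of Ras, beside 5.22% of all genes tested that fell. Without the mLN HEL neg pool or with the block edgeR called 0 of the 23, without the PP pool 1, and without the spleen pool 4. Of 23 early genes that receptor signals are known to induce 4 rose and 0 fell, beside 3.46% of all genes tested that rose, with a median log2 fold change of 0.24. They were Egr1 (1.19), Dusp2 (0.69) and the nuclear receptors Nr4a2 and Nr4a3. Nr4a3 had 0.116 to 11.3 CPM with a median of 4.59 in HEL pos libraries, against 0.139, 0.323 and 0.691 CPM in HEL neg pools, with a log2 fold change of 3.09 ± 0.73 (adjusted p 0.0176, edgeR). Nr4a2 had 221 counts over the 9 HEL pos libraries against 1 count over the 3 HEL neg pools. It passed the filter on low counts through its HEL pos libraries alone, which can raise the count of genes that rose. The spleen HEL pos libraries were at 0.454 CPM of Nr4a3 or less, so the high values were those of mLN and PP. Nr4a1 (1.23, adjusted p 0.0738) and Egr2 (1.32, adjusted p 0.139) were not called. With the block 1 early gene was called and the median was -0.0033, and with pools alone 0. Without the mLN HEL neg pool, or without the PP pool, edgeR called 0 of the 23, and without the spleen pool 8 rose and 2 fell.

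Of 27 genes of anergy and tolerance 2 rose and 5 fell, with a median log2 fold change of 0.13. Cd5, an inhibitor of receptor signalling on B-1 and anergic B cells (chr19:10717116-10739002), had 2.57 to 19.0 CPM with a median of 10.7 in HEL pos libraries, against 2.78, 1.94 and 2.25 CPM in the HEL neg pools of spleen, mLN and PP. In mLN and PP every HEL pos library was above every pool, and in spleen 2 of 3 were above their own, with a log2 fold change over the tissues of 1.87 ± 0.46 (adjusted p 0.0224, edgeR). It was not called without the mLN or the PP HEL neg pool, or with the block (adjusted p 0.0848). Nab1, a corepressor of EGR factors, rose by 1.02. The members that fell were Nt5e, the transcription factor Ikzf3 (Aiolos, -0.99), the lipid kinase Dgka (-0.77) and the inhibitory receptors Cd22 (-0.63) and Fcgr2b (-0.57). With the block 1 of the 27 rose, 1 fell and the median was -0.06, and DESeq2 gave a median of -0.02. Without the mLN HEL neg pool 1 rose and 2 fell, without the PP pool 1 and 1, and without the spleen pool 6 and 5. Cblb (0.13), Ptpn6 (-0.15), Pdcd1 (0.84) and Lag3 (0.23) were not called.

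Surface ligands of T cell help changed in both directions. Of 13 costimulatory and coinhibitory genes 2 rose and 3 fell. Icosl, the ligand of ICOS, had 29.3 to 114 CPM with a median of 96.9 in HEL pos libraries, against 184, 216 and 235 CPM in HEL neg pools, a log2 fold change of -1.58 ± 0.22 (adjusted p 5.65e-04, edgeR). Tnfsf9 (4-1BB ligand) changed by -2.62 and Slamf1 by -1.67. Tnfsf4, the ligand of OX40, had 818 counts over the HEL pos libraries against 0 counts over the HEL neg pools, at least 79.8-fold higher when the pools are set to 3 counts in all. Its HEL pos levels were 27.6 to 30.0 CPM in mLN and 2.28 to 9.00 in PP, but at most 0.347 in spleen, where it was within the floor. Tnfsf4 passed the filter on low counts through its HEL pos libraries alone, so it could only rise. Cd274 (PD-L1) rose by 0.68, and Cd40 (-0.40) and Cd86 (0.10) were not called. With the block, or without the mLN or the PP HEL neg pool, 1 of the 13 rose and 2 fell, and with pools alone edgeR called 0. Of 17 antigen presentation genes edgeR called 0, with a median log2 fold change of -0.24, while 8 had an unadjusted p under 0.05 and DESeq2 called 4.

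Of 14 genes of the BCL2 family 3 rose and 1 fell. The survival genes Bcl2l1 (BCL-XL, 0.99) and Bcl2a1d (1.69) and the pro-apoptotic Bmf rose, while the pro-apoptotic Pmaip1 (NOXA) fell by 1.23 on the log2 scale. Bcl2a1d has near-identical copies, so its reads may be shared with them. Bcl2 itself was not called, at 50.5 to 102 CPM with a median of 67.3 in HEL pos libraries against 102, 93.8 and 97.1 CPM in HEL neg pools (log2 fold change -0.48, adjusted p 0.174). It differed by the source of the library. The HEL pos pools of spleen, mLN and PP had 91.0, 102 and 92.9 CPM, and libraries 392 and 399 had 50.5 to 69.2. Its log2 fold change was -0.03 with pools alone and -0.78 (adjusted p 0.00597, edgeR) without the HEL pos pools. Of 16 genes of the BAFF receptor and NF-kappaB pathways Nfkbiz rose (0.84) and Rela fell (-0.50). Of 15 Toll-like receptor genes Tlr7, a sensor of single-stranded RNA, rose by 1.24 and Ly96 by 0.86. Of 17 genes on the homing receptor list Rgs2, a regulator of G-protein signalling and not itself a receptor, rose (0.97). The receptors Ccr6 (-1.13), P2ry10 (-0.84) and Cxcr4 (-0.62) fell. Of 11 cytokine and chemokine genes 3 fell: Ccl5 (-2.55), Lta (-0.97) and the interleukin 4 receptor Il4ra (-0.59). Of 15 genes of TGF-beta response and IgA switching Smad3 rose (1.02) and Ski (-0.83) and Il5ra (-1.40) fell. Glycolysis genes had 2 that fell of 17, the glucose transporter Slc2a1 (-0.63) and Pfkl (-0.41). These 7 lists held 20 calls over all 12 libraries and 31 by DESeq2. Beside these counts, 3.46% of all genes tested rose and 5.22% fell. They held 2 without the mLN HEL neg pool, 4 without the PP pool and 29 without the spleen pool, 2 with the block and 0 with pools alone.

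Ribosomal protein and respiratory chain genes differed by the source of the library. Of 76 cytosolic ribosomal protein genes 4 rose and 0 fell (median 0.52 on the log2 scale), and of 75 oxidative phosphorylation genes 12 rose and 0 fell (median 0.38). Over all genes tested 3.46% rose. Rps12 had 410, 655 and 485 CPM in the HEL pos pools of spleen, mLN and PP and 902 to 1360 CPM in the HEL pos libraries 392 and 399, against 437, 422 and 390.1 CPM in the HEL neg pools. For Rps12 the HEL pos pool of spleen lay near its HEL neg pool and those of PP and mLN lay above theirs, while the numbered libraries were higher than the HEL pos pool in each tissue. With pools alone edgeR called 0 genes of either list and the medians were 0.04 and 0.12. Without the 3 HEL pos pools 60 ribosomal protein genes and 43 oxidative phosphorylation genes rose, with medians of 0.70 and 0.49. Without the mLN or the PP HEL neg pool 0 of either list were called, and over all 12 libraries DESeq2 called 22 and 25. Many ribosomal protein genes have processed copies in the genome that can share their reads.

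**Figure D3:**
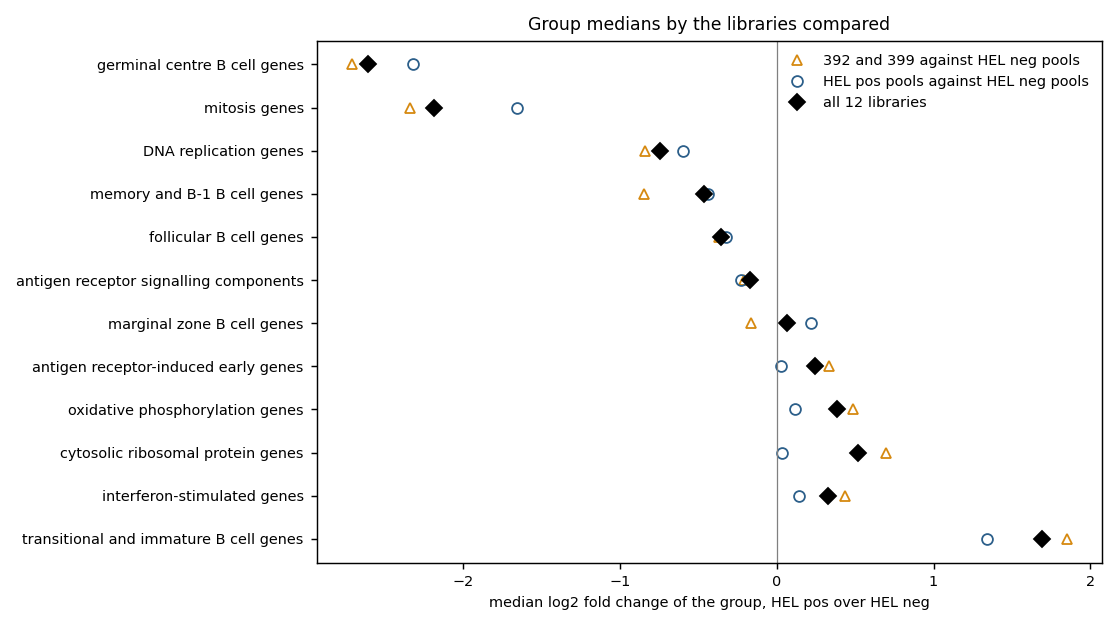
Median log2 fold change of HEL pos over HEL neg cells for 12 gene groups, from all 12 libraries (diamonds), from the HEL pos libraries 392 and 399 against the HEL neg pools (triangles) and from the HEL pos pools against the HEL neg pools (circles). The germinal centre, mitosis and transitional groups stand on the same side of 0 in all 3 fits, while the ribosomal protein group has 0.70 from 392 and 399 and 0.04 from the pools.

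Because each tissue has 1 HEL neg pool, differences within a tissue are values with no test. A difference of over 2-fold with all 3 HEL pos libraries on one side of the pool was found in spleen for 381 genes higher (3.34%) and 594 lower (5.21%), in mLN for 942 higher (8.26%) and 979 lower (8.58%), and in PP for 609 higher (5.34%) and 1059 lower (9.28%). In all 3 tissues 56 genes were higher (0.491%) and 220 lower (1.93%). Of the 14 germinal centre genes 9 were lower by this rule in spleen, 10 in mLN and 11 in PP, and of the 20 mitosis genes 16, 18 and 20 were. Of the 23 early genes that receptor signals are known to induce, 0 were higher by it in spleen, 8 in mLN and 7 in PP. In the same order 1, 3 and 2 of these early genes were lower. The follicular genes were lower mainly in mLN, with 6 of 11, against 0 in spleen and 2 in PP, and their median difference was -1.02 in mLN, -0.09 in spleen and -0.14 in PP on the log2 scale. The B cell identity genes had medians of -0.75 in mLN, 0.30 in spleen and -0.22 in PP.

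Several of the genes that rose furthest were highest in mLN and PP. Gpr56, an adhesion receptor, had 2.20, 5.65 and 6.21 CPM in the spleen HEL pos libraries, 18.4, 26.6 and 19.4 in those of mLN and 18.0, 30.9 and 13.7 in those of PP, against 0.835, 0.323 and 1.04 CPM in the HEL neg pools. Every HEL pos library was above every pool, with a log2 fold change of 4.14 ± 0.58 (adjusted p 7.36e-04, edgeR). Spp1, the secreted phosphoprotein osteopontin (chr5:104435118-104441050), had 2.55, 1.57 and 0.303 CPM in spleen, 38.2, 29.8 and 26.6 in mLN and 8.85, 3.05 and 16.3 in PP HEL pos libraries, against 0.278, 0 and 0.346 CPM in the HEL neg pools. Its log2 fold change was 5.55 ± 1.00, with 991 counts over the HEL pos libraries and 4 over the HEL neg pools, and it was not called without the mLN HEL neg pool. Hivep3, a zinc finger protein (chr4:119733784-120138045), had 36.2 to 179 CPM with a median of 121 in HEL pos libraries, against 16.4, 10.8 and 33.2 CPM in HEL neg pools, and rose by 2.31 ± 0.31 (adjusted p 4.80e-04, edgeR). The difference between HEL pos and HEL neg pools, on which both fits rest, was 2.49 with the block and 2.57 with pools alone. The gene 1100001G20Rik went the other way among tissues, with 14.5, 51.6 and 32.8 CPM in spleen HEL pos libraries and at most 7.46 elsewhere, against 1.39, 0.161 and 0.173 CPM in HEL neg pools. Plxnd1, a semaphorin receptor, had its highest HEL pos levels in spleen, at 25.1 to 33.3 CPM. The HEL neg pools of spleen, mLN and PP had 13.9, 0.968 and 0.346 CPM. Its difference from the pool was smallest in spleen, at 1.04, against 2.97 in mLN and 3.27 in PP on the log2 scale.

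Of 14 genes that an earlier analysis of these libraries described as higher in mLN than in spleen HEL pos cells, 4 rose and 0 fell, with medians of 4.86 in mLN, 3.12 in PP and -1.14 in spleen on the log2 scale. The list was chosen on these libraries, so it is not independent evidence of a tissue difference. Without the mLN HEL neg pool 1 rose, without the PP pool 2 and without the spleen pool 9, and with the block 3. Axl, a receptor tyrosine kinase that binds apoptotic cells through Gas6 (chr7:25757273-25788705), had 1.39, 1.25 and 0.757 CPM in the spleen HEL pos libraries, 217, 234 and 198 in those of mLN and 44.0, 31.5 and 44.4 in those of PP, against 2.23, 2.42 and 0.346 CPM in the HEL neg pools. The mLN and PP libraries were far above every pool, and the spleen libraries were below theirs. Nrgn, a calmodulin-binding protein, had 31.4 to 60.5 CPM in mLN and 12.2 to 15.8 in PP HEL pos libraries, against 0.968 and 0.691 CPM in the HEL neg pools of the same tissues. The chemokine genes Ccl3 and Ccl4, which activated B cells secrete, were higher by 6.46 and 7.50 in mLN and by 4.65 and 6.84 in PP, and differed by -1.54 and -2.39 in spleen. Neither passed the test over all tissues.

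**Figure D4:**
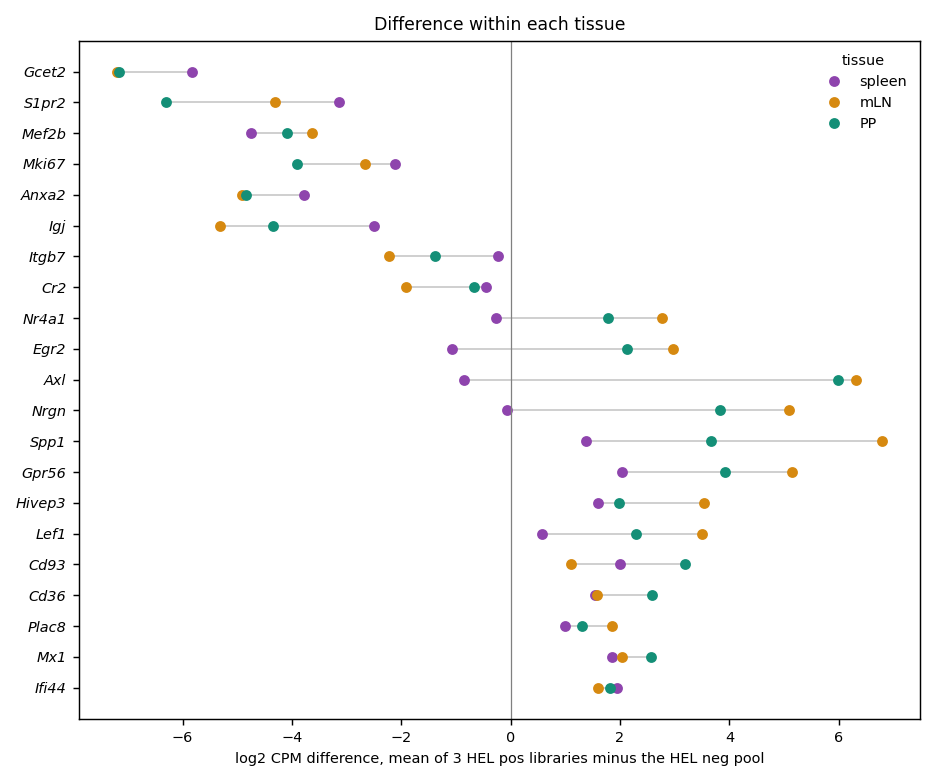
Difference within each tissue for 21 genes, as the mean log2 CPM of 3 HEL pos libraries minus that of the HEL neg pool of that tissue, with spleen in purple, mLN in orange and PP in green. Gcet2, S1pr2, Mef2b, Mki67 and Anxa2 lie below 0 in all 3 tissues, and Axl, Egr2 and Nr4a1 lie below 0 in spleen and above it in mLN and PP.

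Markers of other cells were measured in the same libraries. Of 12 macrophage and dendritic cell markers tested 3 fell and 0 rose: Siglech, a plasmacytoid dendritic cell receptor (-3.86), Cd209a (-3.38) and Flt3 (-2.79). Without the mLN or the PP HEL neg pool 1 fell, and with the block edgeR called 0. Their list summed to 12.2 to 71.6 CPM in HEL pos libraries and 50.6 to 94.9 CPM in HEL neg pools, and all 9 HEL pos libraries were below their own pool. T and NK cell markers summed to 135 to 381 CPM in HEL pos libraries and 273 to 342 CPM in HEL neg pools. Of 13 tested 1 fell, Nkg7 (-2.52). It lost its call when any single library other than the mLN HEL pos pool was left out. By the 2-fold rule within a tissue, 7 of the 13 were lower in spleen, 1 in mLN and 6 in PP. In the same order 5.21%, 8.58% and 9.28% of all genes tested were lower. By that rule 0, 3 and 1 of the 13 were higher, beside 3.34%, 8.26% and 5.34% of all genes tested. Their median difference was -1.63 in spleen, 0.50 in mLN and -0.75 in PP on the log2 scale. Intestinal epithelial markers summed to 245, 1050 and 785 CPM in the PP HEL pos libraries 392, 399 and Pool, against 1430 CPM in the PP HEL neg pool, and of 15 tested edgeR and DESeq2 called 0, with 4 at an unadjusted p under 0.05. In spleen and mLN they were at most 37.7 CPM in HEL pos libraries and at most 30.4 CPM in HEL neg pools. Of 8 granulocyte markers, 3 erythroid and platelet markers and 4 Y-linked genes tested over all 12 libraries, edgeR and DESeq2 called 0, and 0 had an unadjusted p under 0.05. Stromal and endothelial markers summed to 119 to 283 CPM in HEL pos libraries and 172 to 242 CPM in HEL neg pools, and 2 HEL pos libraries were above their own pool. Of 2 tested Madcam1 rose, at 89 counts over the HEL pos libraries against 0 counts over the HEL neg pools. It was at least 8.68-fold higher when the pools are set to 3 counts in all. It passed the filter on low counts through its HEL pos libraries alone, so it could only rise. Without the mLN or the PP HEL neg pool it was not called. The part of these transcripts in the results was not tested.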

How the data were processed

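RNA of sorted B cells was sequenced as single-end 50-bp reads, and 2 kits (TruSeq and Nextera XT) are named per the labels. The values are whole-number counts per gene symbol in the table the authors deposited. The submitters' processing notes list STAR, HTSeq, DESeq2 and mm10. Their roles, versions and strand settings are not stated, so a gene and its antisense partner cannot be told apart. Genes were filtered with filterByExpr, libraries were scaled with TMM, and a model of tissue and HEL label was fitted with edgeR 4.0.16 in R 4.3.3 (8 degrees of freedom left, biological coefficient of variation 0.259). Tests were two-sided with Benjamini-Hochberg adjustment over 11406 of 23337 genes. Differences within a tissue are of log2 CPM with a prior count of 2. In a simulation of this comparison (11079 genes) the test called 8.96% of 1.5-fold changes, 65.7% of 2-fold changes and 100% of 4-fold changes, with 6 false calls. The simulated counts had a common dispersion and no effect of tissue or source.

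The libraries, the gene lists and the tests were chosen with earlier results of these data known. The naming rule took the 12 highest and the 12 lowest log2 fold changes of calls that averaged at least 3 log2 CPM and had all 9 HEL pos libraries on one side of their pools. It added at most 4 called genes of each list and a fixed set. Other list members are named to account for their list, and were chosen after their values were seen. Alternatives tried were DESeq2 1.42.0, its size factors in edgeR, no filter, each library or tissue left out, pools alone, no HEL pos pools, no PP HEL pos libraries 399 and Pool, a block for the source of the library, and fits with 6 or 9 groups. Deviations of HEL pos libraries of 1 source correlated across tissues at 0.264 to 0.325 for the pools and 0.108 to 0.189 for 392. For 399 they hardly did, at 0.0362 to 0.116. HEL pos and HEL neg cells share only the label Pool, so the pairing between them could not be checked. Floors of 3 counts cover counting error only. Coordinates are from GENCODE M21. Some genes that the naming rule selects are not reported here.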

Additional observations from a re-analysis of the deposited data

Results flagged for a closer look

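For 7 of the 110 genes that the naming rule selects, the HEL pos libraries of 1 tissue all lay on the opposite side of their HEL neg pool from those of another tissue. Each tissue has 1 HEL neg pool, so these differences between tissues were not tested. The values are HEL pos minus HEL neg in log2 CPM. Axl, a receptor tyrosine kinase, had -0.86 in spleen, 6.32 in mLN and 5.98 in PP. Egr2, Nr4a1 and Cd83, 3 of the 23 early genes that receptor signals induce, had the same signs. Egr2 had -1.07 in spleen, 2.97 in mLN and 2.13 in PP, Nr4a1 had -0.26, 2.77 and 1.77, and Cd83 had -0.61, 0.51 and 0.32. Egr2 levels were 4.23 to 5.60 CPM in spleen, 141 to 179 in mLN and 93.2 to 117 in PP HEL pos libraries, against 11.0, 19.4 and 24.4 CPM in the HEL neg pools. Cd1d1, which presents lipids, had 0.47 in spleen, -1.10 in mLN and 0.44 in PP. Fcer2a (CD23) had -0.94 in mLN and 0.58 in PP. Il5ra, the interleukin 5 receptor, had -0.79 in spleen, -2.89 in mLN and 0.17 in PP.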

How the results depend on the processing

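No called gene that the naming rule selects reversed its direction in the alternatives run. Among those not called, the log2 fold change changed sign for Cd1d1, Cd83 and Fcer2a. The median of 17 of the 33 lists changed sign in at least 1 alternative, and 12 of these medians were within 0.3 of 0. The others were Y-linked genes, follicular genes and 3 marker lists (erythroid and platelet, intestinal epithelial, and stromal and endothelial). The 990 calls (395 higher, 595 lower) became 1551 with DESeq2 (702 higher), 1495 without the low-count filter (644 higher) and 2137 with all 21 libraries in 9 groups (1093 higher, 1044 lower), and 751 genes were higher with 6 groups. Leaving out 1 library gave 176 to 1574 calls, 39 to 747 higher and 137 to 827 lower. With the replicate block for the source of the library 123 were called (42 higher, 81 lower), with pools alone 73 (11 and 62), and without the 3 HEL pos pools 606 were higher. Without spleen 633 were higher, without mLN 99 were called (18 and 81), and without PP 239 (59 and 180). The causes were not tested, except that leaving out a HEL neg pool or a tissue leaves 2 HEL neg libraries. On simulated counts, which held no effect of source, the block recovered 38.8% of genes changed 2-fold, against 65.7% without it. The block gave 11 false calls there, against 6. A lost call alone therefore does not show a smaller change, and the fold changes have to be compared. With the block the median of the ribosomal protein genes was 0.03, against 0.52 over all 12 libraries. That of the germinal centre genes was -2.44, against -2.61.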

Other observations

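Further genes outside the lists had all 9 HEL pos libraries on one side of the HEL neg pools of their own tissues. Among those that rose, Slamf9, a receptor of the SLAM family, had 10.3 to 67.1 CPM with a median of 25.1 in HEL pos libraries, against 6.41, 7.42 and 2.94 CPM in the HEL neg pools of spleen, mLN and PP (log2 fold change 2.25 ± 0.38, adjusted p 0.0028, edgeR). Lztfl1, a regulator of ciliary protein transport, had a median of 82.2 CPM (17.0 to 159.8) in HEL pos libraries, against 14.2, 10.7 and 6.91 CPM in HEL neg pools (2.41), and Fabp5, a fatty acid-binding protein, had a median of 12.3 CPM (1.97 to 26.7), against 1.39, 1.45 and 2.42 CPM (2.42). Both lost their call with the block for the source of the library.

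Among those that fell, Lipc, hepatic lipase, had a median of 0.545 CPM (0 to 9.72) in HEL pos libraries, against 20.9, 21.8 and 36.3 CPM in HEL neg pools (log2 fold change -4.98 ± 0.66, adjusted p 4.49e-04, edgeR). Cd7, known as a T and NK cell surface protein, had a median of 0.701 CPM (0 to 2.44) in HEL pos libraries, against 41.4, 13.4 and 32.5 CPM in HEL neg pools (-4.80). Gm600 had a median of 0.615 CPM (0 to 3.82) in HEL pos libraries, against 29.5, 41.3 and 93.2 CPM in HEL neg pools (-5.61), and Smagp, a small transmembrane protein, a median of 3.45 CPM (0.914 to 16.2), against 41.4, 56.2 and 64.1 CPM (-3.80). All 4 stayed called with the block for the source of the library.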
